A study of Arabidopsis thaliana with 87 samples.

Results

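HRE2 peaks at promoters are the places where HRE2, a group VII ethylene response factor of Arabidopsis thaliana, was found by chromatin immunoprecipitation (ChIP) within what the peak annotation calls promoter-TSS, the region around a transcription start site. They were chosen from the deposited HRE2 peak list by that annotation alone. Of 4721 HRE2 peaks, 1816 (38.5%) carried it. They were assigned to 1795 genes, 21 of which held 2 such peaks. The rest of the list was annotated as exon (1587 peaks), transcription termination site (807), intergenic (468) or intron (43).

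Group VII ethylene response factors are the transcription factors through which plants turn low oxygen into gene activity. Their amino-terminal cysteine is oxidised by plant cysteine oxidases when oxygen is present, which marks the protein for destruction by the N-degron pathway. In hypoxia they persist, and genes of fermentation, sugar breakdown and oxygen sensing are switched on, among them the oxidases that end the response. The transcript of HRE2 itself is made mainly in hypoxia.

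The seedlings were 7 days old, and treatments began as the lights went off and ran in the dark. The groups 2NS and 9NS stayed in air for 2 h or 9 h, 2HS and 9HS had hypoxia under argon for as long, 1R was returned to air for 1 h after 2 h of hypoxia, and 2R for 2 h. HRE2 was pulled down with an antibody to its HA tag in 2 samples of 2HS. The line was p35S:C2A HRE2-HA, which makes a stabilised HRE2 from a strong, general promoter, so the peaks show where overexpressed HRE2 was found and not the reach of the native protein. No HRE2 sample from air and no input or untagged sample was used here. ATAC-seq, which reads open chromatin, used 2 samples per group of root tissue from the line pUBQ10:NTF pACT2:BirA, whereas all other assays used whole seedlings. Nuclear RNA and poly(A) RNA came from that line and ribosome-bound RNA from p35S:RPL18-FLAG seedlings (TRAP), each with 3 samples per group. The histone variant H2A.Z came from pHTA11:HTA11-3XFLAG seedlings with 2 samples per group. Col-0, the wild type, gave H3K9ac, H3K14ac and H3K27me3 (2 samples per group), H3K4me3 and the Ser2-phosphorylated form of RNA polymerase II, which marks elongation (3 per group). No label says that replicates came from separate cultures, so the p-values below measure the spread between samples, which may be technical.

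Expression and chromatin were deposited as the mean RPKM of each group over the whole gene, so a ChIP value covers the gene and not the peak. The reads of each library could be worked back from these means for most genes, and totals, in units of 1 M reads, ran from 2.69 to 7.31 for HRE2, from 1.05 to 16.6 for nuclear RNA, from 8.66 to 21.0 for poly(A) RNA, from 2.53 to 12.4 for TRAP RNA and from 3.55 to 20.2 for the other ChIP assays. Values given per library are RPKM rescaled so that the median gene matches between libraries. The factors lay near 1 in ChIP but ran from 0.226 to 3.34 in poly(A) RNA and from 0.243 to 1.97 in nuclear RNA, also within groups, and many RNA calls below need this step: without it, 17 of the 95 rises in nuclear RNA and 12 of the 86 in poly(A) RNA after 2 h would still be called. Abundant transcripts, several of the strongest hypoxia genes among them, could not be resolved into libraries, and for these only the authors' mean is given, with no error and no test. All 3 leaf mesophyll markers were abundant in poly(A) RNA (656 to 5087 RPKM in 2NS) and all 3 endodermis markers passed 1 RPKM (1.98 to 7.17), whereas 1 of 4 root hair and 1 of 3 guard cell markers did. Of the ATAC lists of root tissue, that of 2NS held a promoter peak at 1 of 3 leaf mesophyll, 1 of 3 endodermis and 0 of 4 root hair genes, that of 2HS at 1, 0 and 1, and that of 1R at 1, 2 and 4. In bulk samples, fewer cells of a type and less RNA per cell cannot be told apart.

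Where the peaks lay. Each of 1815 promoter peaks measured 155 bp from its start to its end coordinate, and the deposited score was 0 for every HRE2 peak, so the peaks cannot be ranked by strength. In 1282 of them (70.6%) the nearest start site was that of the gene named, and in 534 (29.4%) it belonged to another gene, so that the gene named there is uncertain. Peaks with their own gene nearest sat close to its start, with a median distance of -87 bp (negative is upstream), quartiles of -402 and 12 bp and a range of -1000 to 723 bp. Of these, 636 (49.6%) lay within 100 bp of the start site, 361 (28.2%) lay over 100 and up to 500 bp upstream and 250 (19.5%) farther upstream. The nuclear chromosomes carried 505, 271, 373, 254 and 413 of the peaks, from 1 to 5, and between 5.19 and 6.01% of the protein-coding genes on each had one. Promoter peaks were mostly far apart, at a median gap of 41880 bp, with 27 gaps under 1 kb and the smallest at 331 bp. The genes comprised 1537 protein-coding genes (5.60% of 27444), 127 genes of long non-coding RNA, 42 pseudogenes, 38 transcribed pseudogenes, 24 of transfer RNA, 13 of other non-coding RNA and 10 of small nucleolar RNA.

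**Figure D1:**
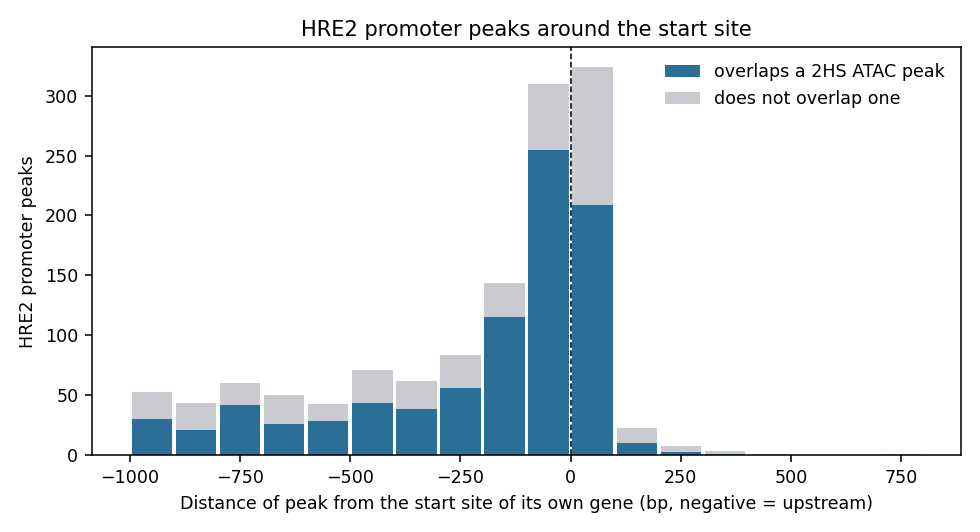
Number of HRE2 promoter peaks (vertical axis) by distance of the peak from the start site of its own gene in bp (horizontal axis, bins of 100 bp, negative is upstream), for the 1282 peaks with that start site nearest; blue peaks overlap an ATAC peak of 2HS and grey peaks do not. The bins on either side of the start site hold the most peaks, and 82.3% of the peaks in the 100 bp before the start overlap a 2HS ATAC peak.

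Peaks that carry the results below are given with their TAIR10 coordinates. The peak of ADH1, the alcohol dehydrogenase of ethanol fermentation, was at chr1:28975061-28975216, at -117 bp from the start. PDC2 encodes a pyruvate decarboxylase of the same pathway, and its peak (chr5:22312875-22313030) lay nearer to the neighbour AT5G54970. LBD41, a LOB-domain regulator, had its peak at chr3:538335-538490, at -286 bp. CML38, a calmodulin-like calcium sensor, had one at chr1:28767779-28767934, at -144 bp. Both plant cysteine oxidases of the hypoxia response had a peak at the start itself: that of PCO1 (AT5G15120, chr5:4898554-4898709) was 10 bp upstream and that of PCO2 (AT5G39890, chr5:15974206-15974361) 13 bp downstream. AT3G13310, which encodes a DNAJ protein, had 2 peaks, at chr3:4311856-4312011 and chr3:4312284-4312439. Coordinates of other genes are given where they are described. Promoter sequences were not analysed here.

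Open chromatin. The promoter peaks were in root open chromatin more often than the other HRE2 peaks, in all 5 ATAC lists. Of the 1816 promoter peaks, 42.2% overlapped an ATAC peak by at least 1 bp in 2NS, 60.9% in 2HS, 57.5% in 9NS, 54.7% in 9HS and 66.7% in 1R. The other HRE2 peaks gave 19.1, 26.5, 24.5, 23.5 and 31.2% in the same order. Among those others the classes differed: intergenic peaks overlapped in 63.0 to 75%, and exon peaks in 8.38 to 17.8%. The ATAC lists differ in length (14398, 27219, 27065, 21438 and 38958 peaks), were called on combined files and rise and fall with the overlap, so the order of the conditions cannot be told apart from list length. Within the promoter class, 714 peaks (39.3%) overlapped in all 5 lists and 561 (30.9%) in none.

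Set against 2NS and 2HS alone, 748 promoter peaks (41.2%) were open in both lists, 358 (19.7%) only in 2HS, 19 (1.05%) only in 2NS and 691 (38.1%) in neither. The share differed with position: in the 100 bp before the start site 82.3% of the peaks overlapped a 2HS ATAC peak, in the 100 bp after it 64.5%, and in the bin from -1000 to -900 bp 56.6%. Counted by gene, 68.2% of the protein-coding genes with an HRE2 promoter peak had a promoter ATAC peak in 2HS, against 36.8% of those with no HRE2 peak. The same shares in 2NS were 47.5 and 19.2%.

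**Figure D2:**
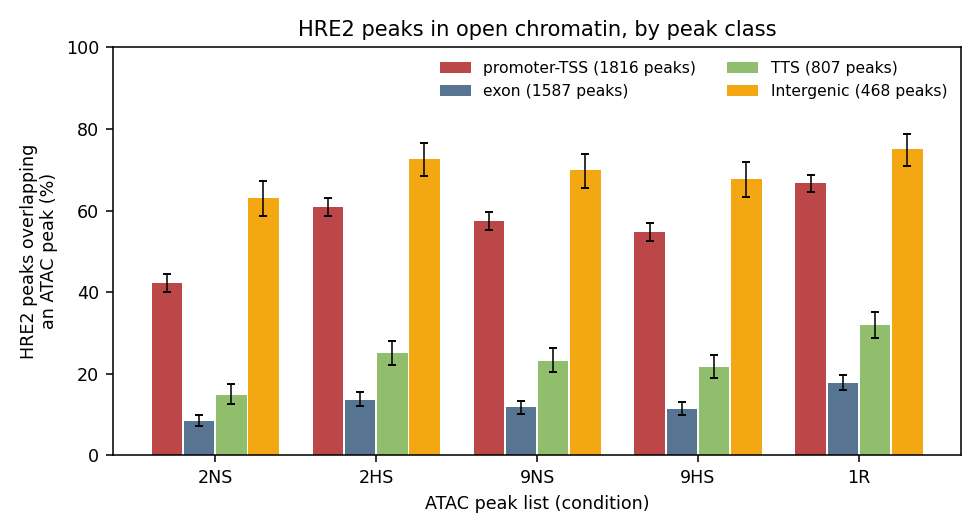
Share of HRE2 peaks (vertical axis, percent) that overlap an ATAC peak by at least 1 bp in each of the 5 ATAC lists (horizontal axis), by annotation class of the HRE2 peak. Promoter peaks lie between 42.2 and 66.7%, exon peaks between 8.38 and 17.8%.

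HRE2 signal over the genes. Over whole genes the 2 HRE2 libraries gave medians of 11.2 and 11.8 RPKM for protein-coding genes with a promoter peak, and 9.49 and 10.8 RPKM for genes with no HRE2 peak. Genes with an exon peak, whose peak lies inside the measured span, had 19.3 and 13.6 RPKM. Values per library are in the order of library size, the larger first. The libraries agreed loosely, with a Pearson correlation across genes of 0.48 over 26763 genes and 0.55 over the 1497 with a promoter peak. Genes are not independent replicates, and gene length and mappability are shared by both libraries. Among the members, LBD41 had 86.1 and 46.2 RPKM, AT4G24110 had 78.6 and 26.3 RPKM, CML38 had 78.1 and 36.4 RPKM and RHL41 had 70.7 and 28.8 RPKM, all above the median of the class in both libraries. LBD41 also held an exon peak, and AT4G24110 was also nearest to a peak annotated as a transcription termination site, so their values are not those of the promoter peak alone.

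Which gene groups held promoter peaks. The core hypoxia list, 51 genes induced by low oxygen across cell types and studies, had a promoter peak at 28 (54.9%), beside 5.60% of all protein-coding genes. A further 11 had no promoter peak assigned to them but another link to an HRE2 peak. In 5 of these a peak was in the gene's own exon (PFK6, RBOHD, AT5G42200, AT3G23170 and AT4G27450), and in 6 the gene only had the nearest start site (SUS1, ERF71, AT3G10040, AT3G27220, AT4G33560 and PP2-A11). For AT3G27220 that peak was a promoter peak assigned to another gene, and AT3G23170 was also nearest to such a peak. The other 12 had none, among them the pyruvate decarboxylase gene AT4G33070 and ERF73, the gene of the sister factor HRE1. HRE2's own gene (ERF71, AT2G47520) had no promoter peak but a peak past its end, at chr2:19502347-19502502, 1278 bp from the start. The line also carries HRE2 as a transgene, and its part in the reads at this gene was not tested.

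Rapid wound and defence factors had promoter peaks at 6 of 19 genes, oxygen-sensing and N-degron genes at 2 of 8, circadian clock genes at 4 of 17, heat shock genes at 3 of 20, ERF and DREB factors at 3 of 22 and ethylene signalling genes at 2 of 16. The lists share members: both oxygen-sensing genes and both ethylene genes are also core hypoxia genes, and DREB2A is on 2 lists. No gene list was used to choose the peaks, though the lists were drawn up with the series' results known.

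Transcripts after 2 h of hypoxia. Genes with an HRE2 promoter peak were higher in 2HS more often than genes at large at each RNA level. In the authors' means, 194 of 1162 (16.7%) were at least 2-fold higher in nuclear RNA against a background of 10% of all genes tested. In poly(A) RNA it was 90 of 958 (9.39%) against 2.78%, and in TRAP RNA 147 of 1142 (12.9%) against 5.95%. The share at least 2-fold lower was below the background in nuclear RNA, at 6.37% against 8.52%. It was near the background in poly(A) RNA (1.04% against 1.1%) and in TRAP RNA (1.93% against 2.5%). Read from the other side, promoter-peak genes made up 7.54% of all genes tested in poly(A) RNA, 90 of the 354 genes at least 2-fold higher (25.4%) and 37 of the 104 at least 4-fold higher (35.6%). They were 69 of the 324 at least 4-fold higher in nuclear RNA (21.3%) and 68 of 269 in TRAP RNA (25.3%).

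The limma test on the recovered libraries called 95 rises and 5 falls among 1078 promoter-peak genes in nuclear RNA (background 3.11% up and 0.583% down), 86 and 37 among 760 in poly(A) RNA (5.46% and 6.86%) and 146 and 108 among 805 in TRAP RNA (13.5% and 12.5%). Fewer genes could be tested than were counted above because the abundant ones were not resolved. With 1 library left out, the rises ran from 68 to 84, from 70 to 79 and from 110 to 164. The TRAP falls dropped to 66 without the 2NS library 1.

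**Figure D3:**
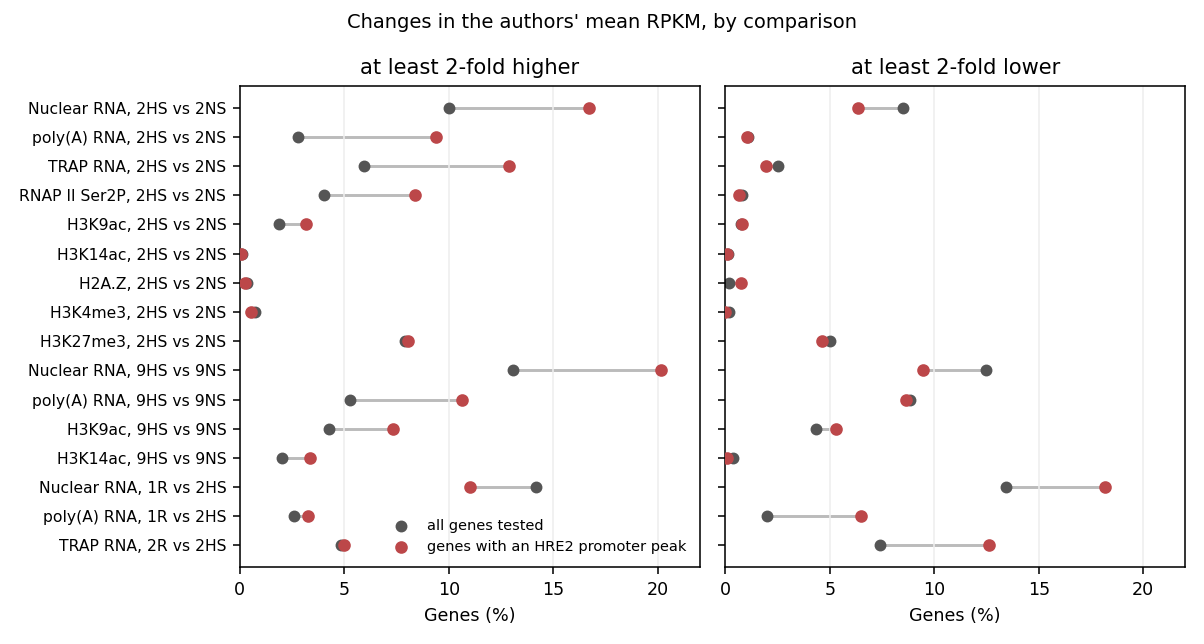
Share of genes (horizontal axes, percent) at least 2-fold higher (left) or lower (right) in the authors' mean RPKM, for each comparison and assay (vertical axis); grey points are all protein-coding genes tested and red points those with an HRE2 promoter peak. In poly(A) RNA after 2 h the points stand at 2.78 and 9.39% on the left and at 1.1 and 1.04% on the right.

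The share differed with where the peak lay. In poly(A) RNA after 2 h, 85 of the 692 genes whose peak overlapped a 2HS ATAC peak (12.3%) were at least 2-fold higher, against 5 of 266 whose peak did not (1.88%). Peaks open in both 2NS and 2HS gave 56 of 484 (11.6%) and peaks open in 2HS but not 2NS gave 29 of 208 (13.9%), so both kinds stood above the rest. Where the named gene was also the nearest, 86 of 729 (11.8%) were higher. Where it was not, 4 of 229 of the named genes (1.75%) and 12 of 308 of the nearest genes (3.90%) were higher. By distance the shares were 11.5% within 100 bp, 13.9% from there to 500 bp upstream and 13.9% farther upstream. For comparison, genes with an exon peak gave 3.02%, genes with a peak at their end 1.56%, genes nearest to an intergenic peak 11.2% (13 of 116), and genes with no HRE2 peak 1.92%. The share exceeded the background at each expression level: over 4 equal classes of poly(A) level from lowest to highest, 10.3, 5.33, 7.88 and 13.4% of promoter-peak genes were higher, against 3.56, 1.76, 2.58 and 3.24% of all genes.

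Nearly all core hypoxia genes with a promoter peak were higher. The list is made of genes induced by low oxygen, so their rise was set in advance and is no result about the peaks. In poly(A) RNA 26 of 27 in the table were at least 2-fold higher (median log2 change 2.48), in nuclear RNA 26 of 27 (3.13) and in TRAP RNA 25 of 26 (3.70). The 22 core genes in the table without a promoter peak gave 21 of 22 (3.15) in poly(A) RNA and 20 of 22 (3.05) in nuclear RNA, and no difference between these and the genes with a peak was tested. By limma, 18 of 21 rose in nuclear RNA, 13 of 14 in poly(A) RNA and 8 of 8 in TRAP RNA. Without rescaling, 8 of the 18, 6 of the 13 and all 8 were still called. AT5G39580, a peroxidase gene, was the exception in poly(A) RNA, with rescaled values of 4.98, 7.56 and 8.94 RPKM in 2NS and 7.31, 6.52 and 5.31 RPKM in 2HS. One further core member with a peak, AT4G10270, was listed at 0 in every column.

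Fermentation and sugar supply. ADH1 stood at 3.99 RPKM in 2NS and 129 RPKM in 2HS in the authors' poly(A) means, and its TRAP means were 19.8 and 1238 RPKM. PDC2 went from 5.99 to 78.6 RPKM in the poly(A) means. SUS4, a sucrose synthase whose peak (chr3:15184086-15184241) lay at -58 bp, was nearly silent in air, with rescaled values of 0.203, 0.293 and 0.278 RPKM in 2NS and an authors' mean of 15.2 RPKM in 2HS. The haemoglobin gene HB1, which scavenges nitric oxide in hypoxia, had its peak 86 bp inside the gene (chr2:6983614-6983769). Its nuclear RNA was 4.69, 7.26 and 8.28 RPKM in 2NS and 33.9, 57.7 and 42.9 RPKM in 2HS. The groups were far apart, and the log2 change was 2.68 ± 0.36 (standard error of the limma estimate, 3 libraries per group, adjusted p = 9.5e-05), a call lost without rescaling.

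Oxygen sensing. Nuclear RNA of PCO1 (AT5G15120) was 2.54, 2.56 and 5.73 RPKM in 2NS and 29.9, 43.0 and 24.9 RPKM in 2HS, a log2 change of 3.01 ± 0.47 (adjusted p = 0.00066) that was lost without rescaling. That of PCO2 (AT5G39890) was 3.72, 3.19 and 1.5 RPKM against 49.1, 61.5 and 52.7 RPKM, a change of 4.02 ± 0.39 (adjusted p = 1.7e-06). Neither gene's groups overlapped. Their peaks did not lie in an ATAC peak of 2NS but did in 2HS.

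Regulators and signalling. LBD41 had poly(A) means of 5.67 RPKM in 2NS and 401 RPKM in 2HS, and its TRAP means were 26.7 and 1817 RPKM. Nuclear RNA of CML38 was 1.15, 0.889 and 2.64 RPKM in 2NS and 66.4, 53.4 and 55.4 RPKM in 2HS, a log2 change of 4.70 ± 0.40 (adjusted p = 4.3e-07). SRO4 and SRO5 encode relatives of the stress regulator RCD1 and had their peaks at chr3:17592023-17592178 and chr5:25097553-25097708, at -458 and -314 bp. SRO4 was close to undetected in air, with TRAP values of 0.0704, 0.109 and 0 RPKM in 2NS, and stood at 47.2, 52.1 and 64.5 RPKM in 2HS. Its TRAP change was 5.70 ± 0.16 (adjusted p = 1.2e-10) and its poly(A) change 3.22 ± 0.14 (adjusted p = 1e-10). SRO5 in poly(A) RNA was 0.364, 0.0991 and 0.160 RPKM against 5.62, 6.76 and 3.68 RPKM, a change of 2.36 ± 0.19 (adjusted p = 1.8e-07).

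Both ethylene genes with a promoter peak rose in poly(A) RNA. ACO1 makes ethylene from its precursor, and its peak (chr2:8478270-8478425) was at -614 bp. It had 0.615, 0.792 and 0.896 RPKM in 2NS and 7.18, 8.34 and 6.54 RPKM in 2HS, a log2 change of 2.23 ± 0.16 (adjusted p = 3.9e-08). ETR2, an ethylene receptor, had 1.43, 1.27 and 1.32 RPKM against 6.25, 6.59 and 6.67 RPKM, a change of 1.67 ± 0.15 (adjusted p = 4.7e-07). The ETR2 call, unlike that of ACO1, was lost without rescaling.

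Genes of unknown function were among the strongest. AT5G66985, annotated as a hypothetical protein, had poly(A) values of 2.58, 4.90 and 1.91 RPKM in 2NS and 78.5, 78.2 and 64.4 RPKM in 2HS, a log2 change of 4.23 ± 0.26 (adjusted p = 6.1e-09). AT4G24110 had 1.12, 2.35 and 2.70 RPKM against 55.7, 53.1 and 76.8 RPKM, a change of 4.37 ± 0.23 (adjusted p = 8.6e-10). AT2G14247 is not on the core list. It had 0.291, 0.652 and 0.719 RPKM against 18.0, 19.4 and 15.7 RPKM, a change of 3.59 ± 0.15 (adjusted p = 5.5e-11).

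**Figure D4:**
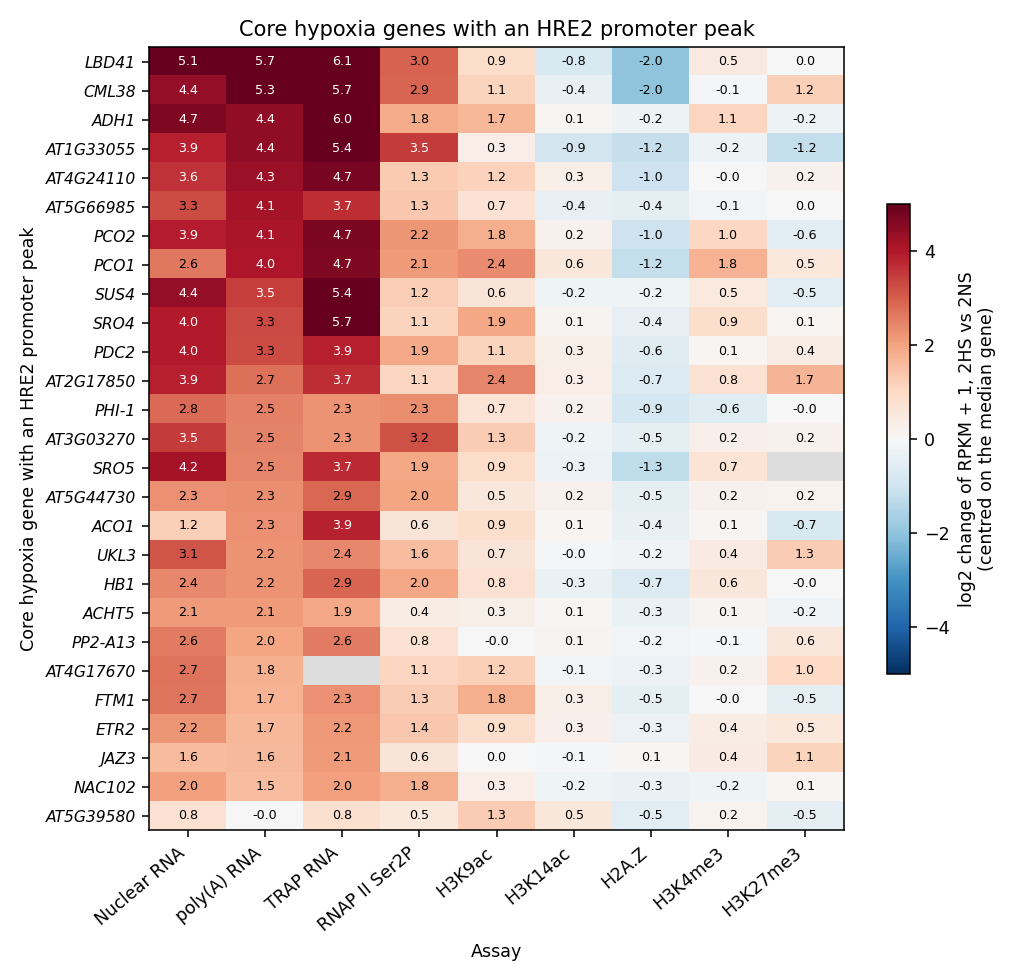
Log2 change of RPKM + 1 between 2HS and 2NS, from the authors' means after centring on the median gene (colour and printed value), for 27 core hypoxia genes with an HRE2 promoter peak (vertical axis) in 9 assays (horizontal axis); grey cells fell under 1 RPKM on average. The 3 RNA columns are red except for the poly(A) change of AT5G39580, at -0.01, and the grey TRAP cell of AT4G17670, and H2A.Z is most negative at LBD41 and CML38.

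Wound and defence factors. All 5 testable members rose in nuclear RNA and all 4 in poly(A) RNA, of which 2 and 2 were still called without rescaling. RHL41, known as ZAT12, is a zinc-finger factor of oxidative stress, and its peak (chr5:24102735-24102890) lay 2 bp from the start. It had poly(A) values of 5.84, 4.50 and 3.21 RPKM in 2NS and 46.5, 42.3 and 51.4 RPKM in 2HS, a log2 change of 3.13 ± 0.17 (adjusted p = 8.8e-10). WRKY40, a defence repressor, had 0.779, 1.37 and 2.27 RPKM against 14.3, 15.2 and 9.78 RPKM, a change of 2.52 ± 0.25 (adjusted p = 1.6e-06). STZ (ZAT10) and ZAT6, zinc-finger factors of abiotic stress, rose by 1.85 ± 0.17 and 1.61 ± 0.16 (adjusted p = 7.5e-07 and 1.2e-06), both lost without rescaling. WRKY33, a regulator of camalexin defence, was tested in nuclear RNA, at 6.62, 9.43 and 7.23 RPKM against 36.2, 45.8 and 48.3 RPKM, a change of 2.46 ± 0.34 (adjusted p = 0.00012) that was lost without rescaling.

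Heat shock genes were called more often in nuclear than in poly(A) RNA, a difference that was not tested. All 3 with a promoter peak rose in nuclear RNA and 1 of 3 in poly(A) RNA, and in all 3 the nearest start site was another gene's. Heat shock genes without a promoter peak showed the same pattern in the authors' means. Of these, 16 of 16 were at least 2-fold higher in nuclear RNA and 3 of 17 in poly(A) RNA. DREB2A, a drought and heat factor (chr5:1601351-1601506), rose at both levels, from 0.833, 0.680 and 0.660 to 6.41, 6.85 and 9.94 RPKM in poly(A) RNA (log2 change 2.31 ± 0.21, adjusted p = 7.7e-07). HSFA2, a heat shock factor, had nuclear values of 0.368, 0.569 and 2.00 RPKM in 2NS and 40.9, 10.1 and 18.3 RPKM in 2HS, while its poly(A) values stayed at or under 1.17 RPKM in 2HS. AT5G51440, a small heat shock protein gene, had nuclear values of 4.67, 2.46 and 1.86 RPKM against 41.7, 43.1 and 23.2 RPKM, a change of 3.33 ± 0.39 (adjusted p = 2.2e-05). Its poly(A) values overlapped between groups, at 3.68, 4.45 and 4.14 RPKM against 3.50, 2.93 and 6.63 RPKM.

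Among the largest falls in poly(A) RNA, AT5G39080, an acyltransferase gene with its peak at chr5:15641130-15641285, had poly(A) values of 7.44, 7.16 and 6.12 RPKM in 2NS and 1.77, 1.88 and 2.04 RPKM in 2HS, a log2 change of -1.45 ± 0.13 (adjusted p = 1.7e-06). AT3G45230, a cell wall proteoglycan gene, had 5.59, 6.17 and 6.22 RPKM against 1.21, 1.70 and 2.45 RPKM, and -1.36 ± 0.20 (adjusted p = 0.00013). PAO3, a polyamine oxidase gene, had 4.77, 4.91 and 4.87 RPKM against 1.83, 1.62 and 1.28 RPKM, and -1.20 ± 0.12 (adjusted p = 1.3e-06). All 3 of these poly(A) calls were lost without rescaling. The clock gene LHY (peak at chr1:37983-38138) fell in nuclear RNA, from 11.2, 12.4 and 12.4 to 2.64, 0.624 and 3.74 RPKM, a change of -1.98 ± 0.41 (adjusted p = 0.0077) that was lost without rescaling.

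Across the RNA levels and chromatin. The 90 promoter-peak genes at least 2-fold higher in poly(A) RNA after 2 h were mostly higher in the other RNA assays too. Of 88 in the nuclear table, 79 were at least 2-fold higher there (median 2.24), and 86 of 88 in TRAP RNA (2.35). In elongating polymerase 57 of 90 passed 2-fold (median 1.23), and in H3K9ac 18 of 90 (0.58, with 81 above 0). H2A.Z was at least 2-fold lower at 11 of the 90 (median -0.40, with 82 below 0), while H3K14ac had a median of 0.05. The 858 genes tested in poly(A) RNA but under 2-fold either way had medians of -0.0041 in H3K9ac and 0.19 in H2A.Z. HRE2 ChIP over the gene was also higher where poly(A) RNA was, at medians of 20.3 and 16.2 RPKM in the 2 libraries against 11.7 and 12.1 RPKM. Genes that passed 2-fold in nuclear RNA but not in poly(A) RNA had medians of 12.3 and 12.7 RPKM. The ChIP values cover the whole gene without an input sample, and LBD41 and PHI-1, among the higher genes, also held an exon peak. What the difference follows was not tested. Of 89 genes in the TRAP table that passed 2-fold in nuclear RNA but not in poly(A) RNA, 22 passed it in TRAP RNA.

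Elongating polymerase and histone marks after 2 h. Ser2P was at least 2-fold higher at 125 of 1489 promoter-peak genes (8.39%, background 4.04%), and H3K9ac at 47 of 1488 (3.16%, background 1.85%). H3K14ac passed it at 1 gene (background 0.0941%), H3K4me3 at 8 of 1487 (0.538%, background 0.711%) and H3K27me3 at 117 of 1456 (8.04%, background 7.89%), so these marks stood near the background. Values at least 2-fold lower were as rare as in genes at large: 10 genes in Ser2P (0.672%, background 0.813%), 12 in H3K9ac (0.806%, background 0.751%), 1 in H3K14ac (background 0.105%), 0 in H3K4me3 (background 0.178%) and 67 in H3K27me3 (4.6%, background 4.99%). By limma no promoter-peak gene was called in Ser2P (0 of 689, with 28 under an unadjusted p of 0.05), H3K4me3 (0 of 841, 71) or H3K27me3 (0 of 1456, 47). In Ser2P and H3K4me3 the rest of the 1489 and 1487 genes counted above could not be resolved into libraries and were not tested. No gene in the whole table was called in these 3 assays either, so the lack of calls does not show that nothing changed.

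H3K9ac, an acetylation of active genes, rose at 188 and fell at 80 of 1488 promoter-peak genes by limma (background 6.53% and 4.59%). These counts depend on single libraries: the rises numbered 103 without the 2NS library 1, 84 without the 2NS library 2 and 101 without the 2HS library 2, and the falls ran from 23 to 50. Core hypoxia genes gave 19 rises of 27 and no fall. PCO1 (AT5G15120) had 8.24 and 7.25 RPKM in 2NS and 46.5 and 42.3 RPKM in 2HS, a log2 change of 2.38 ± 0.16 (2 libraries per group, adjusted p = 2.9e-05). ADH1 had 7.97 and 7.68 RPKM against 26.9 and 26.9 RPKM, a change of 1.67 ± 0.18 (adjusted p = 0.00019). In these genes the libraries of a group lay close together and the groups far apart.

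The largest H3K9ac change of any promoter-peak gene was at BPS3, annotated as a BPS1-like protein and not on a hypoxia list, with its peak at chr4:564506-564661. Values were 6.29 and 8.00 RPKM in 2NS and 58.5 and 63.9 RPKM in 2HS, a change of 2.94 ± 0.21 (adjusted p = 2.9e-05), while its poly(A) RNA went from 0.0964, 0.0787 and 0.286 to 3.98, 2.99 and 4.93 RPKM. BBX29, a B-box factor, had 9.54 and 8.68 RPKM of H3K9ac against 59.4 and 58.8 RPKM, a change of 2.58 ± 0.14 (adjusted p = 1.2e-05). Its poly(A) RNA was at or under 0.608 RPKM in each 2NS and 2HS library. In the authors' centred means BBX29 was higher in nuclear RNA (log2 change 1.35), TRAP RNA (1.83) and Ser2P (1.47). H3K14ac was called up at 11 and down at 5 of 1489 genes (background 0.403% and 0.196%), and at no more than 1 once any single library was left out.

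H2A.Z is a histone variant often found over genes that respond to the environment. It was at least 2-fold lower at 11 of 1491 promoter-peak genes (0.738%, background 0.155%), and these were 11 of the 41 such genes in the whole table (26.8%). It was at least 2-fold higher at 4 (0.268%, background 0.329%). All 11 genes had a promoter peak in a 2HS ATAC peak, 6 of them not in one of 2NS. Over all promoter peaks these shares were 60.9% and 19.7%, and the 2NS list is shorter than that of 2HS. By limma 8 promoter-peak genes fell and none rose (background 0.068% and 0.0189%): CML38, LBD41, AT3G13310, STZ, DREB2A, SRO5, PCO1 (AT5G15120) and AT2G41010, with 231 genes under an unadjusted p of 0.05. CML38 had 21.1 and 16.6 RPKM in 2NS and 3.33 and 4.41 RPKM in 2HS, a log2 change of -2.02 ± 0.21 (adjusted p = 0.0062). LBD41 had 34.5 and 34.4 RPKM against 4.11 and 11.6 RPKM, a change of -2.14 ± 0.30 (adjusted p = 0.023). The 2HS libraries of LBD41 differed from each other more than those of the other genes.

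AT3G13310 had 18.0 and 14 RPKM of H2A.Z in 2NS against 3.71 and 3.76 RPKM in 2HS, a change of -1.83 ± 0.21 (adjusted p = 0.010). STZ had 31.2 and 39.2 RPKM against 12.7 and 16.4 RPKM (-1.21 ± 0.17, adjusted p = 0.021), and DREB2A had 24.3 and 23.3 RPKM against 9.48 and 10.7 RPKM (-1.16 ± 0.15, adjusted p = 0.019). SRO5 had 14.7 and 12.3 RPKM against 5.10 and 4.82 RPKM (-1.27 ± 0.20, adjusted p = 0.044), a call lost without either 2NS library and without rescaling. The PCO1 (AT5G15120) call, at an adjusted p of 0.0499, was lost without the 2NS library 2 and without rescaling. The count of falls itself rose to 114 without the 2HS library 1 and to 42 without the 2HS library 2. H2A.Z and RNA were measured in different plant lines.

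**Figure D5:**
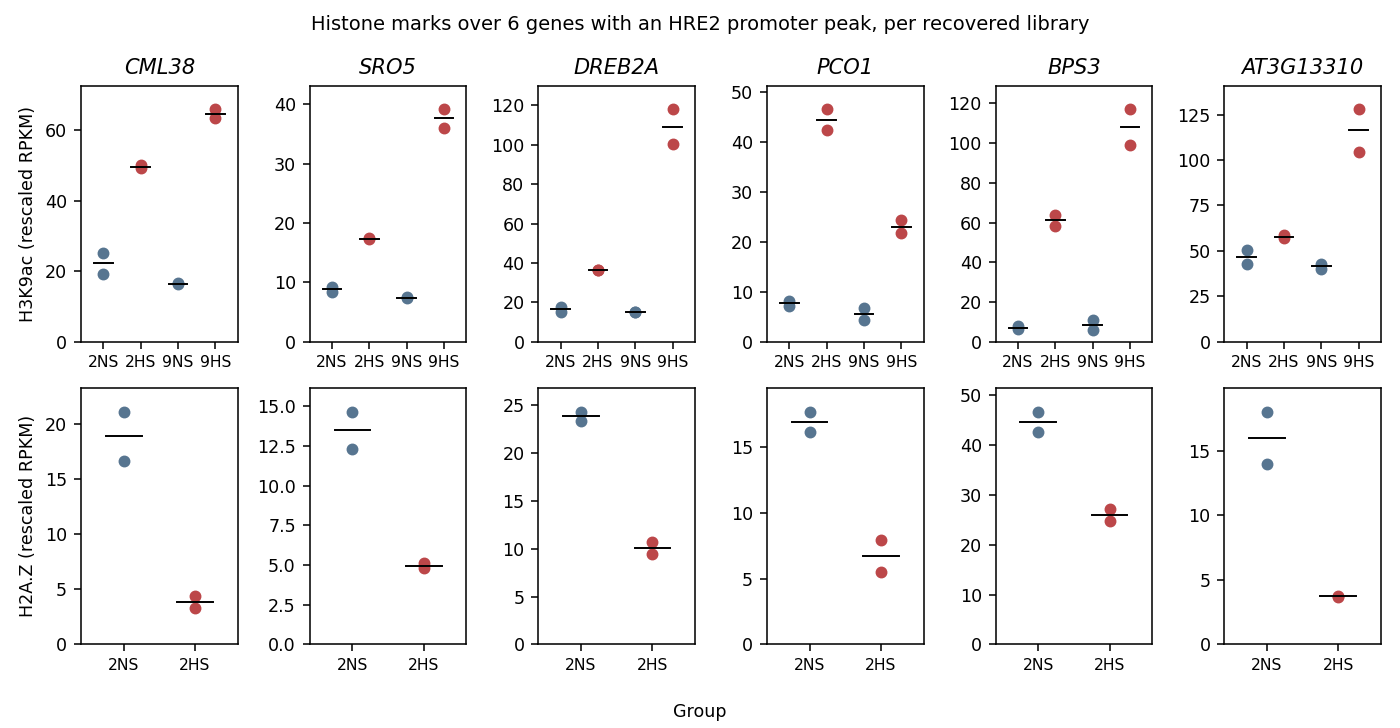
H3K9ac in 2NS, 2HS, 9NS and 9HS (upper row) and H2A.Z in 2NS and 2HS (lower row) over 6 genes with an HRE2 promoter peak, as rescaled RPKM per recovered library (vertical axes, each from 0 and with its own scale); points are the 2 libraries of a group and bars their mean. Hypoxic H2A.Z points lie below those in air for all 6 genes, and H3K9ac at DREB2A reaches 118 and 100 RPKM in 9HS against 36.4 and 36.3 RPKM in 2HS.

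After 9 h of hypoxia. By the 2-fold count more promoter-peak genes were higher than after 2 h, and so were more genes at large, whereas limma called fewer rises in nuclear RNA. At least 2-fold higher were 234 genes in nuclear RNA (20.1%, background 13.1%), 102 in poly(A) RNA (10.7%, background 5.26%), 109 in H3K9ac (7.33%, background 4.28%) and 50 in H3K14ac (3.36%, background 2.03%). At least 2-fold lower were 110 in nuclear RNA (9.47%, background 12.5%), 83 in poly(A) RNA (8.66%, background 8.82%), 79 in H3K9ac (5.31%, background 4.36%) and 1 in H3K14ac (background 0.361%). The median gene of poly(A) RNA fell by 1.75 on the log2 scale between the 9 h groups before centring, so the poly(A) values are relative to a large shift. Without centring, the share of promoter-peak genes over that of all genes was 5.55, and without a filter on low values it was 0.80, the opposite direction. By limma 67 rose and 15 fell of 989 in nuclear RNA (background 3.36% and 1.53%), 213 and 103 of 731 in poly(A) RNA (19.8% and 20.4%), 308 and 299 of 1488 in H3K9ac (14.9% and 15.8%) and 340 and 89 of 1489 in H3K14ac (17.4% and 5.67%). Leaving out 1 library took the nuclear counts to between 40 and 50 rises and 8 and 13 falls, each library but the 9HS library 1 moving the rises by more than 1.5 times. The H3K14ac rises were 176 without the 9NS library 2 and 177 without the 9HS library 2, and its falls 36, 36 and 37 without the 9NS library 1, the 9NS library 2 and the 9HS library 2. The H3K9ac falls were 195 without the 9HS library 2. Without rescaling, 46 of the 213 rises and 0 of the 103 falls in poly(A) RNA were called, and 16 of the 67 rises in nuclear RNA.

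Core hypoxia genes with a promoter peak were again higher: 15 of 20 rose in nuclear RNA, 22 of 23 in poly(A) RNA and 20 of 27 in H3K9ac, where 3 fell. Without rescaling, 8 of the 15 and 15 of the 22 were still called. By the 2-fold count, 26 of 27 were higher in nuclear RNA and 24 of 27 in poly(A) RNA. Core genes without a promoter peak gave 20 of 22 and 19 of 22, and no difference was tested. SUS4, resolved at this time, had poly(A) values of 0.134, 0.160 and 0.444 RPKM in 9NS and 15.7, 10.5 and 9.82 RPKM in 9HS, a change of 3.36 ± 0.17 (adjusted p = 1.1e-09). CML38 had 1.24, 0.819 and 1.19 RPKM against 64.2, 43.7 and 74.2 RPKM (4.86 ± 0.22, adjusted p = 4.6e-10). All 3 heat shock genes rose in H3K14ac, the mark that changed at none of them after 2 h. DREB2A had 20.0 and 17.3 RPKM of it in 9NS and 36.0 and 41.1 RPKM in 9HS (1.04 ± 0.16, adjusted p = 0.0011).

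Tests of the 9 h change against the 2 h change called 51 promoter-peak genes more positive and 34 more negative at 9 h of 694 in poly(A) RNA (12% of all genes called), 34 and 57 of 1488 in H3K9ac (3.57%), 7 and 1 of 1489 in H3K14ac (0.12%) and 0 and 3 of 988 in nuclear RNA (0.0966%). LBD41 turned round in H3K9ac: 39.8 and 24.2 RPKM in 2NS went to 58.9 and 65.0 RPKM in 2HS, but 43.2 and 45.8 RPKM in 9NS went to 25.4 and 18.7 RPKM in 9HS. Its changes of 0.98 ± 0.22 and -0.99 ± 0.22 differed with an adjusted p of 0.012. The 2 h rise was lost without the 2NS library 2 or the 2HS library 2. Among clock genes, PRR7 stood at 28.5 RPKM of nuclear RNA in 9NS and 1.48 RPKM in 9HS in the authors' means, beside 0.278 and 0.482 RPKM in 2NS and 2HS.

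Reoxygenation. The comparisons of 1R and 2R share their 2HS samples with the 2 h comparison above, so the values are set side by side and no overlap is drawn. The 1R and 2R samples were taken 1 h and 2 h later than 2HS, and no air group was taken at those times. Return to air and time since lights off therefore cannot be told apart in these comparisons. At 1R, 211 promoter-peak genes (18.2%, background 13.4%) were at least 2-fold lower than in 2HS in nuclear RNA and 62 (6.47%, background 2.01%) in poly(A) RNA. At 2R, 144 (12.6%, background 7.38%) were lower in TRAP RNA. At least 2-fold higher were 128 (11%, background 14.2%), 31 (3.24%, background 2.6%) and 57 (4.99%, background 4.82%) in the same order. By limma 15 rose and 81 fell of 1111 in nuclear RNA (background 1.84% and 2.85%), 59 and 66 of 687 in poly(A) RNA (7.87% and 5.33%) and 173 and 172 of 842 in TRAP RNA (17.8% and 17.7%). The nuclear falls numbered 50 without the 2HS library 2, and the poly(A) rises 36, 34 and 35 without the 2HS library 1, the 1R library 2 and the 1R library 3. Without rescaling, 0 of the 15 rises and 9 of the 81 falls in nuclear RNA were called, and 2 of the 59 and 6 of the 66 in poly(A) RNA.

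Core hypoxia genes fell at each level: 17 of 21 in nuclear RNA, 10 of 13 in poly(A) RNA and 8 of 8 in TRAP RNA. Without rescaling, 6, 3 and 8 of these were still called. SRO4 was back to 0.331, 0.133 and 0 RPKM in TRAP RNA at 2R. AT5G66985 had 4.16, 5.15 and 4.54 RPKM in poly(A) RNA at 1R. ACO1 came down less far in the same time, to 3.99, 3.37 and 3.08 RPKM, between its 2NS and 2HS values. PAO3 went the other way, to 6.07, 5.36 and 5.10 RPKM at 1R, above its values in 2NS. HSFA2, whose poly(A) values in 2HS were 0.785, 0.886 and 1.17 RPKM, rose to 1.89, 2.74 and 5.21 RPKM at 1R (1.08 ± 0.23, adjusted p = 0.0037), a call lost without rescaling. ADH1 stood in the authors' poly(A) means at 220 RPKM in 1R beside 129 RPKM in 2HS, while its nuclear means were 39.1 and 146 RPKM. These means are not centred, and the median poly(A) gene was itself higher in 1R, by 0.61 on the log2 scale. After centring, the ADH1 change was 0.15 in poly(A) RNA, so close to flat, and -2.33 in nuclear RNA. LHY stood in nuclear RNA at 18.5, 15.9 and 13.2 RPKM.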

How the data were processed

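The 1816 promoter peaks, their genes and the gene lists were chosen with earlier results of these data known. The submitters' processing notes name Bowtie2, TopHat2, HOMER and the TAIR10 build without versions. The read counter and its strand setting are not stated there, so overlapping, antisense and near-identical genes are uncertain. Per the file headers, the HRE2 and ATAC peaks were called on combined files and annotated by HOMER with Araport11. The ATAC peak scores deposited by the authors only ranked peaks within a list, and the HRE2 peak score was not informative. The authors deposited RPKM as group means in 30 columns. Gene names, types and spans came from RefSeq (37746 of 37899 identifiers matched).

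From the means, differences of log2(RPKM + 1) were taken for protein-coding genes averaging 1 RPKM or more in the assay, centred on the median gene, and counted at 2-fold; they carry no test and understate changes of low genes. Because each deposited mean comes from whole reads, reads per library were recovered for most genes. Rebuilt means differed from the deposited ones by at most 2.63e-07 of their value. Such a match was a condition for accepting a solution, so it cannot show that the split between libraries is right. The recovery and the test on it replaced the planned description of means alone after the data were seen. Libraries are numbered in order of reads and carry no replicate number. limma (3.58.1, R 4.3.3) was fitted to log2(RPKM + 1) of libraries rescaled to the median gene, all groups of an assay in 1 fit, with a variance trend and Benjamini-Hochberg adjustment over all genes tested; "rose", "fell" and "called" mean an adjusted p of at most 0.05. It was tested on simulated data. Overlap with ATAC peaks needed 1 bp. Python 3.11.15, pandas 2.3.3, numpy 2.4.6, scipy 1.17.1, numba 0.67.0 and matplotlib 3.10.9 were used.

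Named genes were the core hypoxia genes with a promoter peak, the 10 largest rises and 5 largest falls in poly(A) RNA, the 5 largest rises in H3K9ac and the 5 largest falls in H2A.Z at 2 h, 5 genes with the most promoter peaks, up to 5 members of each other list, and HRE2; core genes with other or no HRE2 peaks and AT2G41010 were named after their values were seen. The planned search for motifs needs promoter sequence and was not run.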

Additional observations from a re-analysis of the deposited data

Results flagged for a closer look

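For 25 values of named genes the change after 9 h of hypoxia differed from that after 2 h. The test was limma's on the difference itself, at an adjusted p of at most 0.05 over all genes tested. Over all genes it called 12% in poly(A) RNA, 3.57% in H3K9ac, 0.12% in H3K14ac and 0.0966% in nuclear RNA. No named gene was called in nuclear RNA. The difference was not refitted without single libraries or without rescaling. Values below are the 9 h log2 change minus the 2 h change, with both changes after it.

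In poly(A) RNA the change was larger at 9 h for RHL41 (1.11, from 3.13 to 4.23) and AT5G39580 (1.00, from -0.13 to 0.86), and the fall of PAO3 was smaller (0.88, from -1.20 to -0.32). It was smaller at 9 h for PP2-A13, a phloem lectin gene (-1.47, from 1.92 to 0.44), AT5G66985 (-1.18, from 4.23 to 3.03), CML37 (-1.07, from 1.56 to 0.48) and the jasmonate repressor gene JAZ3 (-0.94, from 1.60 to 0.64). For CML37 the authors' centred means gave 1.33 at 2 h and 1.43 at 9 h, not a smaller change.

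In H3K9ac the change was more positive at 9 h at DREB2A (1.69, from 1.09 to 2.78), STZ (1.58, from 0.59 to 2.17), RHL41 (1.51, from 0.55 to 2.06), HSFA2 (1.36, from 1.90 to 3.26), SRO5 (1.30, from 0.91 to 2.2) and AT5G51440 (1.23, from 1.67 to 2.90). The mark was relatively lower at 9 h at BBX29 (-1.98, from 2.58 to 0.59), LBD41 (-1.96, from 0.98 to -0.99), PCO2 (AT5G39890; -1.26, from 1.83 to 0.57), AT1G25277 (-1.16, from 0.59 to -0.57), AT5G39080 (-1.14, from -0.84 to -1.99), ACHT5 (-1.07, from 0.31 to -0.77) and WRKY33 (-1.03, from 1.38 to 0.34). For BBX29 the 9NS libraries, at 51.5 and 45.2 RPKM, were already far above the 2NS libraries at 9.54 and 8.68 RPKM. At AT1G25277 the call of the 2 h rise was lost whichever 2NS or 2HS library was left out. Its 9 h fall was lost without either 9NS library and without the 9HS library 2. Calls of the 2 h changes at STZ, LBD41 and AT5G39080 and of the 9 h changes at PCO2 and BBX29 were also lost in at least 1 such fit.

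In H3K14ac the difference was 1.54 at STZ (from -0.37 to 1.21), 1.36 at AT5G51440 (from 0.14 to 1.53), 1.35 at BPS3 (from 0.69 to 2.08), 1.31 at SRO5 (from -0.29 to 1.06) and 1.03 at HSFA2 (from 0.25 to 1.32).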

How the results depend on the processing

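No paired analysis was possible because the recovered libraries carry no replicate number. Promoter peaks within 500 bp of the nearest start site, that of the named gene or of another, were 31.9% of all HRE2 peaks. Overlap with ATAC (2NS, 2HS, 9NS, 9HS, 1R) was 35.4, 48.4, 47.6, 43.6 and 54.4% with 50% of the peak covered, and 26.8, 47.0, 44.4, 41.0 and 54.6% with the upper part of the ATAC scores. For peaks within 500 bp of the nearest start site of any gene it was 59.8% (9NS) and 69.2% (1R). The ratio of shares was 2.31 for H2A.Z with all gene types, and 0.80 without a filter and 5.55 without centring for poly(A) RNA at 9 h. Without rescaling, limma called 17 rises and 0 falls (nuclear) and 12 and 0 (poly(A)) at 2 h, 16 rises (nuclear) and 49 and 0 (poly(A)) at 9 h, and 0 and 9 (nuclear) and 2 and 6 (poly(A)) at 1R. With only the 2 groups compared, nuclear RNA gave 3 falls at 2 h, 120 and 37 at 9 h, and 2 and 36 at 1R, and H3K14ac gave 0 and 0 at 2 h. The causes were not tested. Leaving out 1 library, rises and falls ran over 68 to 84 and 1 to 5 (nuclear 2 h), 70 to 79 and 24 to 30 (poly(A) 2 h), 110 to 164 and 66 to 141 (TRAP 2 h), 84 to 159 and 23 to 50 (H3K9ac 2 h), 0 to 0 and 0 to 1 (H3K14ac 2 h), 8 to 114 falls (H2A.Z), 40 to 50 and 8 to 13 (nuclear 9 h), 180 to 226 and 89 to 117 (poly(A) 9 h), 221 to 280 and 195 to 285 (H3K9ac 9 h), 176 to 312 and 36 to 97 (H3K14ac 9 h), 10 to 21 and 50 to 76 (nuclear 1R), 34 to 43 and 54 to 63 (poly(A) 1R) and 128 to 189 and 135 to 176 (TRAP 2R). Among named genes, 102 calls were lost without rescaling. The motif alternatives were not run. Nuclear RNA had the smallest library, at 1.05 M reads; the effect of depth was not tested.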
